A study of Homo sapiens with 24 samples.

Results

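The collagen genes were the rows of the deposited expression table whose Ensembl identifier maps to a symbol made of COL, a number, A and a number. The rule used names only and found 44 collagen genes among 43037 genes. They were described over 8 groups of 3 libraries each, 24 libraries in all, from 4 established human lines of glioblastoma: DBTRG-05MG, T98G, U87MG and U251MG. Gene activity was read with CAGE-Seq, which sequences a tag from the capped 5′ end of each transcript, and the values are CPM, the tags of a gene per 1000000 tags on genes. A transcript gives 1 tag whatever its length, so CPM values of different genes were compared without a length correction.

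In each line the “WWOX” variant carried WWOX, a WW domain-containing oxidoreductase known as a tumour suppressor, from the lentivirus pLenti-GIII-CMV-GFP-2A-Puro, in which a CMV promoter drives the insert, and the “Vec” variant received the Puro-Blank Lentivirus. All 8 groups were transduced at a multiplicity of infection of 1.5 for 24 h and selected with puromycin at 1 µg/mL from 72 h, so the “Vec” cells had gone through virus and selection too. T98G was grown in MEM, DBTRG-05MG in RPMI medium, and U87MG and U251MG in EMEM, so line and medium cannot be told apart in comparisons between lines other than U87MG with U251MG. The labels call the 3 libraries of a group biological replicates without saying whether each came from a transduction of its own, and p-values here measure the spread between those libraries.

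Collagens are extracellular proteins built from 3 alpha chains wound into a triple helix, and each gene encodes 1 kind of alpha chain. Fibrillar collagens form the ropes of connective tissue, type IV forms the sheet of basement membranes, type VI forms beaded microfilaments near cells, FACIT collagens decorate fibrils, and transmembrane collagens sit in the cell surface. In brain, collagens are known mainly from the basement membrane of blood vessels and from the meninges, and glioblastoma cell lines are known to make several of them in culture.

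Several collagen genes lie head to head, so that a short stretch of DNA separates the starts of 2 chains that join 1 trimer. On GRCh38 the starts of COL4A1 and COL4A2 on chromosome 13 are 127 bases apart, those of COL4A3 and COL4A4 on chromosome 2 are 419 bases apart, and those of COL4A5 and COL4A6 on chromosome X are 1416 bases apart, each pair on opposite strands (canonical transcripts of GENCODE 44). Other transcripts carry the annotated spans of COL4A2, COL4A4, COL4A6, COL11A1 and COL13A1 further upstream of their canonical starts. The COL4A6 span reaches 108439497, nearer to the COL4A5 start at 108439838 than the canonical COL4A6 start at 108438422. The 1416 bases thus hold for the canonical transcripts only. The RefSeq promoter table (GRCh38.p14) held 32 of the 44 collagen genes. The longest stretch without a GENCODE exon in the 250 bases before the canonical start is printed for the 3 pairs because their chain ratios are compared here, and for COL13A1, COL11A1 and COL18A1 because they moved with WWOX or between lines. Capitals mark the letters of 4 motifs, each searched on both strands. The GC box was GGGCGG. The CCAAT box was CCAAT and the TATA box TATAAA. The AP-1 site was TGANTCA, with N for any base.

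COL4A2: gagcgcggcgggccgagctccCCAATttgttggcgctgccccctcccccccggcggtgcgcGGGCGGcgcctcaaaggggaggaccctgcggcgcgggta
COL4A3: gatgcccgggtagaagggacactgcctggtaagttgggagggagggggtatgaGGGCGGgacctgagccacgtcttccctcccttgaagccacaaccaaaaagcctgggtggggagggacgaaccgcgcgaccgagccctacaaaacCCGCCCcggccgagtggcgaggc
COL4A5: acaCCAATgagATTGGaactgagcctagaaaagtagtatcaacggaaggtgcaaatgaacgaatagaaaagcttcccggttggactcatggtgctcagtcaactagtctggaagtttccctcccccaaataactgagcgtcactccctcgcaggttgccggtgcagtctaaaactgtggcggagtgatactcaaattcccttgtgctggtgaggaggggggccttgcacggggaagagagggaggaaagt
COL13A1: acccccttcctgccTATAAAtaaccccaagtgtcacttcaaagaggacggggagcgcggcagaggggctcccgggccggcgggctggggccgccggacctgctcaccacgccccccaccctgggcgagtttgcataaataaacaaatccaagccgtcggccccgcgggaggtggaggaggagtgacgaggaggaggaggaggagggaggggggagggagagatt
COL11A1: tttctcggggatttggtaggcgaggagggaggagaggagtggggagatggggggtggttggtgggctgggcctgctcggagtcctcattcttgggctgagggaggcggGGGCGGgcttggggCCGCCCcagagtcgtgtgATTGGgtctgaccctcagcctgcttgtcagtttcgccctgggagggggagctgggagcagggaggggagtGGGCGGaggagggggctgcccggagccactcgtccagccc
COL18A1: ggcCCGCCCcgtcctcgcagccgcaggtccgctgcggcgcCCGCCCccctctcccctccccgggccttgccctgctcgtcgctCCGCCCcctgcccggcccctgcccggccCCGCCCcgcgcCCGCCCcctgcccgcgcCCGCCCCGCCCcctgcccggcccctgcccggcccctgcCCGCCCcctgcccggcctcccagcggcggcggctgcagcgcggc

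The COL4A2 stretch (chr13:110307158-110307257, plus strand, 100 bases) holds 1 GC box and 1 CCAAT box and lies between the COL4A1 start and the COL4A2 start, ending 26 bases before the latter, with 78.0% G or C. The COL4A3 stretch (chr2:227164454-227164623, plus strand, 170 bases) holds 2 GC boxes, with 65.9% G or C. The COL4A5 stretch (chrX:108439588-108439837, plus strand, 250 bases) holds 2 CCAAT boxes and no GC box, with 51.2% G or C. A GC box is present in 29.9% of the 35116 promoters in the window of the COL4A2 stretch and in 38.3% in that of COL4A3, and CCAAT in 32.0% in that of COL4A5. The COL13A1 stretch (chr10:69801656-69801879, plus strand, 224 bases) holds 1 TATA box, found in 8.48% of promoters in the same window, and ends 26 bases before the start, with 65.6% G or C. The COL11A1 stretch (chr1:103108523-103108772, minus strand, 250 bases) holds 3 GC boxes and 1 CCAAT box, with 68.8% G or C. The COL18A1 stretch (chr21:45404944-45405164, plus strand, 221 bases) holds 8 GC boxes, of which 1 pair shares 1 base, where 41.3% of promoters hold at least 1, with 88.2% G or C. No stretch holds the AP-1 letters, and the median G or C share over all promoters, taken over the 250 bases before the start, is 58.0%. Matches between different motifs do not overlap in these stretches, and a match is letters only, not a site shown to be bound.

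Libraries held 10756072 to 16953689 tags on genes, and 3 tags, taken as the limit that a count of 0 allows, came to 0.177 to 0.279 CPM; these limits cover counting error only. WWOX itself was not past the threshold in any line (log2FC 0.66 in U87MG, 0.39 in DBTRG-05MG, 0.38 in T98G and −0.01 in U251MG), so “WWOX” names the label. The paper reports efficient transduction by Western blot. Whether tags from the CMV-driven insert were counted to WWOX is not given in the sources used here. These values therefore do not show whether the variants overexpressed WWOX. The library labelled U251MG “WWOX” 2 had WWOX at 17.4 CPM, below every U251MG “Vec” library (31.4 to 36.8 CPM), and the mean WWOX difference over the 4 lines passed without it (log2FC 0.41, adjusted p = 0.0142). Two-sided tests came from limma on log2(CPM + 0.5), after scaling by the trimmed mean of M-values, over the 12327 genes that reached 5 CPM in 1 or more libraries, with Benjamini-Hochberg adjusted p under 0.05 as the threshold. A log2FC on this scale, given as “WWOX” minus “Vec” with its standard error, understates the change of genes near 0. U251MG “WWOX” 1 and 2 stood farthest from the mean of their group (standard deviation over genes 0.637 and 0.675 log2, against at most 0.512 in the other libraries). Mesenchymal markers summed to 1344 to 4447 CPM in every library, mostly from CD44 and TGFBI. FN1 ranged from 9.72 CPM in DBTRG-05MG to 417 CPM in U87MG, and VIM from 13.5 CPM in T98G to 71.7 CPM in U87MG. The glial and neural stem list summed to 487 to 3783 CPM in U251MG but 5.60 to 152 CPM in the other lines. Within the glial and neural stem list, GFAP, S100B, NES, FABP7 and SOX2 peaked in U251MG, with GFAP at 114 to 3226 CPM there. SOX2 in DBTRG-05MG (43.9 to 90.5 CPM) lay within its U251MG range (31.0 to 268 CPM). SLC1A3 was highest in U87MG (13.5 to 27.6 CPM), OLIG2 in T98G (up to 3.57 CPM) and AQP4 in DBTRG-05MG (up to 1.03 CPM). The endothelial, immune and epithelial lists stayed at or below 13.3, 0.850 and 2.59 CPM.

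Of the 44 collagen genes, 25 passed the filter on low values and 19 did not. Among the 19, 13 stayed under 1 CPM in every library (COL2A1, COL5A3, COL6A5, COL6A6, COL9A1, COL10A1, COL11A2, COL20A1, COL22A1, COL23A1, COL25A1, COL26A1 and COL28A1), of which 9 had 3 tags or fewer in each of the 24 libraries and COL6A5 and COL6A6 had none. The other 6, COL3A1, COL8A2, COL15A1, COL17A1, COL19A1 and COL24A1, reached 1 to 5 CPM in at least 1 library. By class, tested members were 6 of 11 fibrillar, 6 of 6 type IV, 3 of 5 type VI, 1 of 1 type VII, 1 of 3 short-chain (types VIII and X), 6 of 10 FACIT, 1 of 4 transmembrane and 1 of 2 multiplexin genes. COL2A1 and COL10A1, which are among the collagens of cartilage, were thus near 0 in all 4 lines. So was COL3A1, the fibrillar partner of type I in soft tissue, outside T98G. Only 7 genes had a mean of at least 5 CPM in the “Vec” variants of all 4 lines: COL4A2, COL5A1, COL5A2, COL6A1, COL6A2, COL7A1 and COL8A1. U87MG “Vec” had 11 collagen genes at that mean, T98G 15, U251MG 16 and DBTRG-05MG 17. The map of collagen levels shows blocks of genes that are high in some lines and near 0 in others.

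**Figure D1:**
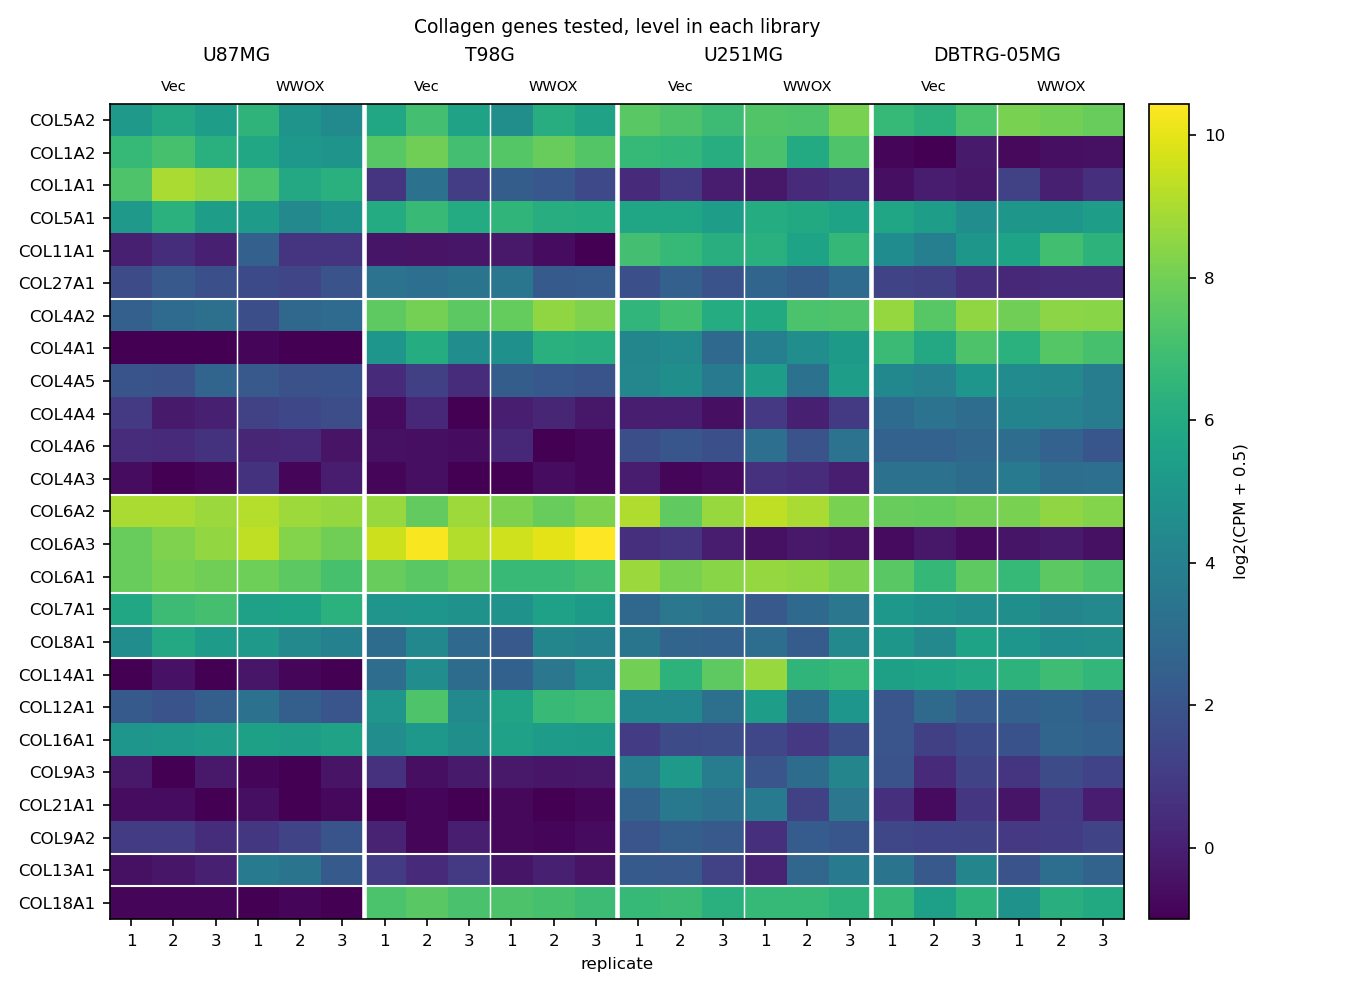
Heat map of log2(CPM + 0.5) for the 25 collagen genes tested (rows, by structural class) in the 24 libraries (columns, by cell line and variant). COL6A1 and COL6A2 are high in every column, whereas COL6A3, COL1A2, COL18A1, COL14A1 and COL4A1 each drop to near 0 in at least 1 line.

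Summed over the 44 genes, collagen tags made up a small part of each library. The sum was 1409.7, 2103, and 1871 CPM in U87MG “Vec”, 2172, 2987, and 1924 in T98G “Vec”, 1977, 1358, and 1477 in U251MG “Vec”, and 1369, 886, and 1477 in DBTRG-05MG “Vec”. T98G was highest and DBTRG-05MG lowest by mean (2361 ± 556 and 1244 ± 315 CPM, SD, n = 3). In the “WWOX” variants the mean was 2448 ± 401 in T98G, 1847 ± 312 in U251MG, 1439 ± 458 in U87MG and 1579 ± 250.6 CPM in DBTRG-05MG, and in every line the “Vec” and “WWOX” libraries overlapped in the sum.

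The type that filled the sum differed between lines. Type VI took 56.4 to 63.5% of collagen tags in T98G “Vec” and 51.8 to 67.0% in U87MG “Vec”, against 29.1 to 35.1% in DBTRG-05MG “Vec”. Type IV took 31.1 to 40.2% in DBTRG-05MG “Vec” and 0.562 to 0.896% in U87MG “Vec”. Basement membrane collagen was thus a main part of the DBTRG-05MG collagen tags and a trace in U87MG. With WWOX, type I lay outside its “Vec” range in U87MG, at 7.53 to 10.4% against 18.3 to 30.3%. In DBTRG-05MG the “WWOX” libraries lay above the “Vec” libraries for type V (15.97 to 23.8% against 11.3 to 13.8%), type XI (3.70 to 6.92% against 1.66 to 2.19%) and type XIV (6.11 to 6.51% against 3.28 to 5.61%). They lay below for type XVIII (2.19 to 4.08% against 4.93 to 7.24%). Shares of 1 library sum to 100% and so move together, and they were not tested.

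**Figure D2:**
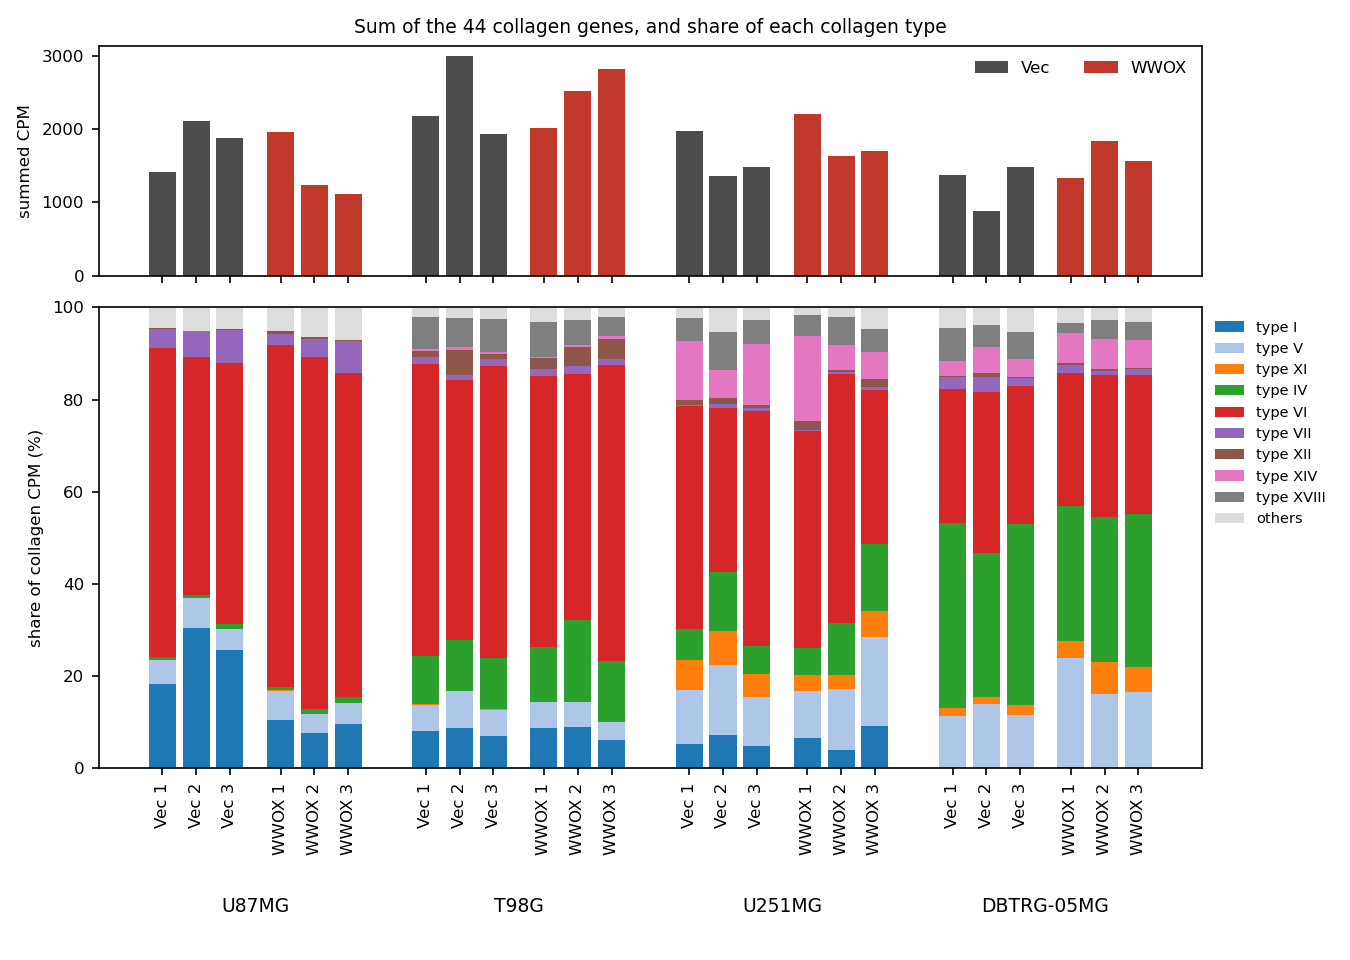
Summed CPM of the 44 collagen genes in each of the 24 libraries (upper bars, from 0) and the percent of that sum taken by each collagen type (lower stacked bars). Type VI fills most of the T98G and U87MG bars, type IV is a thin band in U87MG and a wide one in DBTRG-05MG, and the type I band in U87MG is narrower in the “WWOX” libraries.

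The “Vec” variants of the 4 lines differed in every collagen gene tested: 25 of 25 passed the F test over lines, where 66.9% of all 12327 genes did. Over the 6 pairs of lines, 103 of 150 gene-by-pair differences passed (68.7%, against 37.9% over all genes). By pair, 19 of 25 passed between T98G and DBTRG-05MG (41.2% of all genes), 17 between T98G and U251MG (32.3%), 15 between U251MG and DBTRG-05MG (31.6%), 20 between U87MG and DBTRG-05MG (44.1%), 14 between U87MG and T98G (39.8%) and 18 between U87MG and U251MG (38.6%). The highest “Vec” mean was at least 16 times the lowest (means + 0.5 CPM) in 11 collagen genes (44%), against 9.71% of all genes, and the median log2 range of the 4 means was 3.80 against 1.29. The filter admits a gene on 1 library, so a gene that is low in the other lines had to differ, and these counts describe the genes that passed. Without some libraries 4 calls were lost: COL5A1 without T98G “Vec” 2 or DBTRG-05MG “Vec” 3 (adjusted p = 0.0796 to 0.0904), COL5A2 without U87MG “Vec” 1 (0.0621), COL6A1 without DBTRG-05MG “Vec” 2 (0.0576), and COL6A2 without U87MG “Vec” 1 or 2 or any DBTRG-05MG “Vec” library (0.0823 to 0.0918).

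Fewer collagen genes passed the test between “WWOX” and “Vec”. In U87MG 4 of 25 passed (3.2% of all genes did): COL13A1 and COL4A4 were higher and COL1A1 and COL1A2 lower with WWOX. In T98G 1 passed (1.14% of all genes), COL4A5, which was higher. In DBTRG-05MG 1 passed (1.02%), COL11A1, which was higher. In U251MG none passed by limma (0.316% of all genes did), where 5 had an unadjusted p under 0.05, and edgeR, limma-voom and DESeq2 on recovered tags also called 0. Without U251MG “WWOX” 2, COL4A6 passed there (log2FC 1.17, adjusted p = 0.0466). Averaged over the 4 lines, 1 gene passed (1.79% of all genes), COL4A4, which was higher (log2FC 0.81, adjusted p = 0.00669). Its edgeR adjusted p was 0.0694, and COL4A5 passed too without U251MG “WWOX” 2 (log2FC 0.46, adjusted p = 0.04995).

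The size of the differences, without regard to sign, had a median log2FC of 0.45 over the 25 genes in U87MG (all genes 0.23), 0.36 in U251MG (0.27), 0.32 in T98G (0.27) and 0.31 in DBTRG-05MG (0.23). After scaling, “WWOX” and “Vec” values had no overlap in 9 collagen genes in U87MG (36%, against 17.5% of all genes), 4 in T98G (16%, against 16.2%), 3 in U251MG (12%, against 10.4%) and 7 in DBTRG-05MG (28%, against 19.8%). The T98G and U251MG shares were close to those of all genes. In bulk RNA, fewer cells that express a gene and less RNA per cell cannot be told apart.

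**Figure D3:**
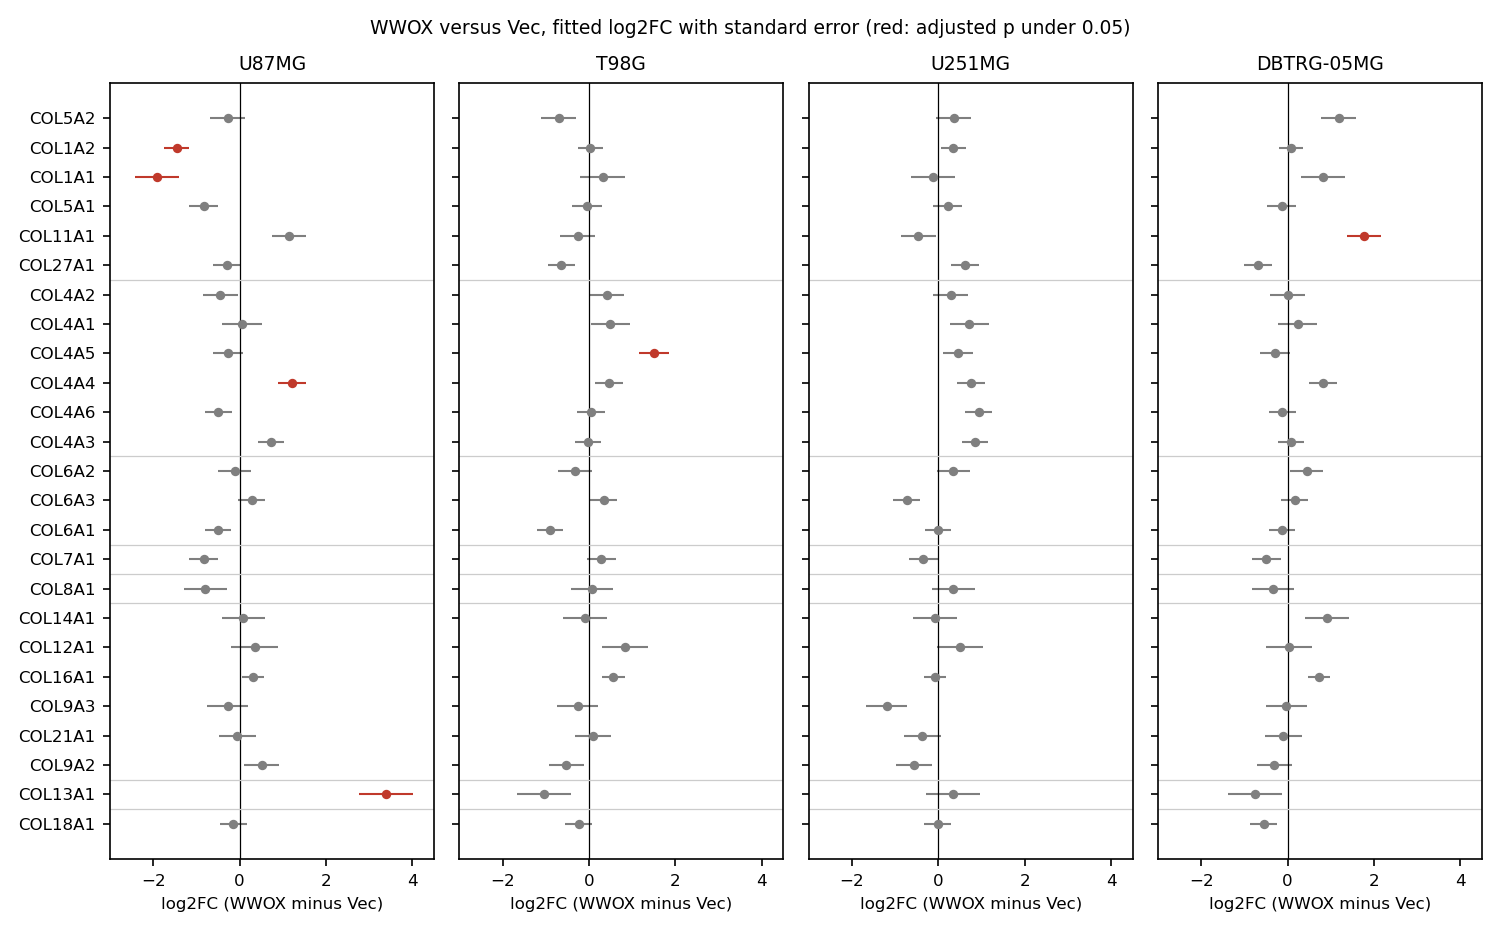
Fitted log2FC (“WWOX” minus “Vec”) of the 25 collagen genes in each cell line, with points for the estimate, bars for the standard error and red for adjusted p under 0.05. COL13A1, COL4A4, COL1A2 and COL1A1 are red in U87MG, COL4A5 in T98G and COL11A1 in DBTRG-05MG, and no gene is red in U251MG.

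Type I collagen, the main fibrillar collagen of connective tissue, is a trimer of 2 COL1A1 chains and 1 COL1A2 chain. COL1A1 lies on chromosome 17 from 50184101 to 50201632, and COL1A2 on chromosome 7 from 94394895 to 94431227. COL1A1 in the “Vec” libraries stood at 157, 500.4, and 405 CPM in U87MG, 0.811, 1.43, and 0.402 in U251MG, 1.20, 9.08, and 1.63 in T98G, and 0.196, 0.451, and 0.329 in DBTRG-05MG. U87MG alone was high, above all other “Vec” libraries, and the others were under 10 CPM. COL1A1 in the “WWOX” libraries stood at 147, 59.1, and 77.0 CPM in U87MG, 0.343, 0.787, and 1.08 in U251MG, 4.74, 3.79, and 2.38 in T98G, and 1.89, 0.518, and 0.960 in DBTRG-05MG. In U87MG the “WWOX” libraries all lay below the “Vec” libraries, although “WWOX” 1 lay close under “Vec” 1. The difference was log2FC −1.91 ± 0.515, adjusted p = 0.0408. It missed the threshold without any 1 of 9 libraries, U87MG “Vec” 2 and 3, U87MG “WWOX” 2 and 3, T98G “WWOX” 2, U251MG “Vec” 1, DBTRG-05MG “Vec” 1 and 3, and DBTRG-05MG “WWOX” 3 (adjusted p = 0.0516 to 0.254), and in 6 of 11 other analyses. In DBTRG-05MG the values were low and did not overlap, with log2FC 0.83 ± 0.515 and adjusted p = 0.823.

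COL1A2 in the “Vec” libraries stood at 101, 138, and 76.7 CPM in U87MG, 100.2, 94.9, and 69.6 in U251MG, 176, 252, and 130.5 in T98G, and 0.0655, 0, and 0.395 in DBTRG-05MG. T98G, U87MG and U251MG carried COL1A2 and DBTRG-05MG did not, and T98G over U87MG passed (log2 difference 0.80, adjusted p = 0.0293) whereas U87MG over U251MG did not (0.40, 0.290). COL1A2 in the “WWOX” libraries stood at 57.5, 33.7, and 29.6 CPM in U87MG, 142, 64.1, and 154 in U251MG, 169.6, 218, and 167 in T98G, and 0.118, 0.194, and 0.206 in DBTRG-05MG. In U87MG every “WWOX” library was below every “Vec” library, and COL1A2 fell (log2FC −1.46 ± 0.285, adjusted p = 0.00291). The call was lost only in a separate model per line (adjusted p = 0.141). In T98G, U251MG and DBTRG-05MG the 2 variants overlapped, with log2FC 0.03, 0.35 and 0.08. The 2 chains of 1 trimer were thus unequally spread: T98G and U251MG held COL1A2 at 64.1 CPM or more with COL1A1 at 9.08 CPM or less, and U87MG held both.

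Of the fibroblast and pericyte markers, DCN and LUM also passed the test in U87MG. The list of 6 genes summed to 11.9, 23.1, and 20.1 CPM in U87MG “Vec” and to 38.1, 25.7, and 26.3 CPM in U87MG “WWOX”, without overlap. DCN (decorin) rose from 1.56, 1.16, and 0.772 CPM to 11.4, 5.16, and 1.10 CPM (log2FC 1.50, adjusted p = 0.0468), although 1 “WWOX” library lay within the “Vec” range. LUM (lumican) rose from 0.213, 0.0773, and 0.281 CPM to 15.1, 3.73, and 1.36 CPM (log2FC 2.88, adjusted p = 0.000510). PDGFRA, PDGFRB and THY1 did not pass (log2FC −0.36, 0.02 and −0.24). The list summed higher in T98G (139 to 314 CPM) and U251MG (164 to 773 CPM), where the variants overlapped. In DBTRG-05MG it summed to 11.5 to 11.8 CPM in “Vec” and 5.00 to 6.35 CPM in “WWOX”, without overlap in the other direction. DCN and LUM bind collagen fibrils, and in U87MG both were higher in the variant where COL1A1 and COL1A2 were lower. Within that variant, however, “WWOX” 1 held the most DCN, LUM, COL1A1 and COL1A2. The part of DCN and LUM in the collagen results was not tested.

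Type V collagen, which starts and sizes type I fibrils, is built mainly of COL5A1 and COL5A2 chains. COL5A1 in the “Vec” libraries stood at 35.9, 79.0, and 41.9 CPM in U87MG, 54.1, 53.7, and 42.5 in U251MG, 65.0, 108, and 64.9 in T98G, and 54.0, 41.3, and 24.0 in DBTRG-05MG. All 4 lines carried it within a narrow span, and no neighbouring lines in the order T98G, U87MG, U251MG, DBTRG-05MG passed the test (adjusted p = 0.148, 0.769 and 0.348), whereas T98G over DBTRG-05MG did (1.23, adjusted p = 0.00577). COL5A1 in the “WWOX” libraries stood at 38.5, 20.4, and 29.6 CPM in U87MG, 67.1, 61.4, and 48.8 in U251MG, 90.2, 68.4, and 66.8 in T98G, and 33.1, 33.0, and 42.4 in DBTRG-05MG. In U87MG the log2FC was −0.84 ± 0.339 with adjusted p = 0.277. “WWOX” 1 lay above the lowest “Vec” library there in CPM as deposited, and after scaling the variants did not overlap. In the other lines the variants overlapped. COL5A2 in the “Vec” libraries stood at 34.6, 59.3, and 42.6 CPM in U87MG, 181, 153, and 116 in U251MG, 57.7, 129, and 47.1 in T98G, and 100.4, 80.7, and 146 in DBTRG-05MG. Again no neighbouring lines passed the test, in the order U251MG, DBTRG-05MG, T98G, U87MG (adjusted p = 0.358, 0.497 and 0.214). U251MG over U87MG passed, since U87MG minus U251MG was −1.55 (adjusted p = 0.00406), as did U87MG minus DBTRG-05MG at −1.03 (0.0451). COL5A2 in the “WWOX” libraries stood at 85.6, 29.9, and 21.8 CPM in U87MG, 159, 155, and 279.9 in U251MG, 24.9, 68.6, and 47.2 in T98G, and 284, 259.8, and 216 in DBTRG-05MG. In DBTRG-05MG every “WWOX” library was above every “Vec” library, with log2FC 1.18 ± 0.407, the second largest there, and adjusted p = 0.297.

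COL11A1, the first chain of type XI, a minor fibrillar collagen known from cartilage and from invasive tumours, lies on chromosome 1 from 102876467 to 103108872. COL11A1 in the “Vec” libraries stood at 0.497, 0.927, and 0.491 CPM in U87MG, 129, 101, and 72.2 in U251MG, 0.281, 0.251, and 0.311 in T98G, and 23.4, 14.7, and 32.3 in DBTRG-05MG. U251MG was highest and DBTRG-05MG next (log2 difference 2.15, adjusted p = 0.000210), and U87MG and T98G were under 1 CPM and did not differ beyond their spread (adjusted p = 0.299). COL11A1 in the “WWOX” libraries stood at 5.14, 1.22, and 1.19 CPM in U87MG, 76.8, 49.2, and 97.5 in U251MG, 0.372, 0.148, and 0 in T98G, and 49.4, 127, and 84.4 in DBTRG-05MG. In DBTRG-05MG every “WWOX” library was above every “Vec” library, and COL11A1 rose there from a mean of 23.5 ± 8.80 to 86.8 ± 38.8 CPM (log2FC 1.76 ± 0.400, adjusted p = 0.0275). The call was lost without DBTRG-05MG “Vec” 1 or 2 or DBTRG-05MG “WWOX” 2 or 3 (adjusted p = 0.0924 to 0.226) and in 3 of 11 other analyses, edgeR among them (adjusted p = 0.0844). U87MG was higher with WWOX in every library too (log2FC 1.15 ± 0.400, adjusted p = 0.161), and U251MG had log2FC −0.46 ± 0.400 (adjusted p = 0.724). DESeq2 on recovered tags called COL11A1 in U87MG (adjusted p = 0.0227). COL27A1, a fibrillar collagen of cartilage, ranged over 0.708 to 10.8 CPM, highest in T98G (T98G over U251MG 1.39, adjusted p = 0.00161), with log2FC from −0.69 in DBTRG-05MG to 0.62 in U251MG and no call.

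**Figure D4:**
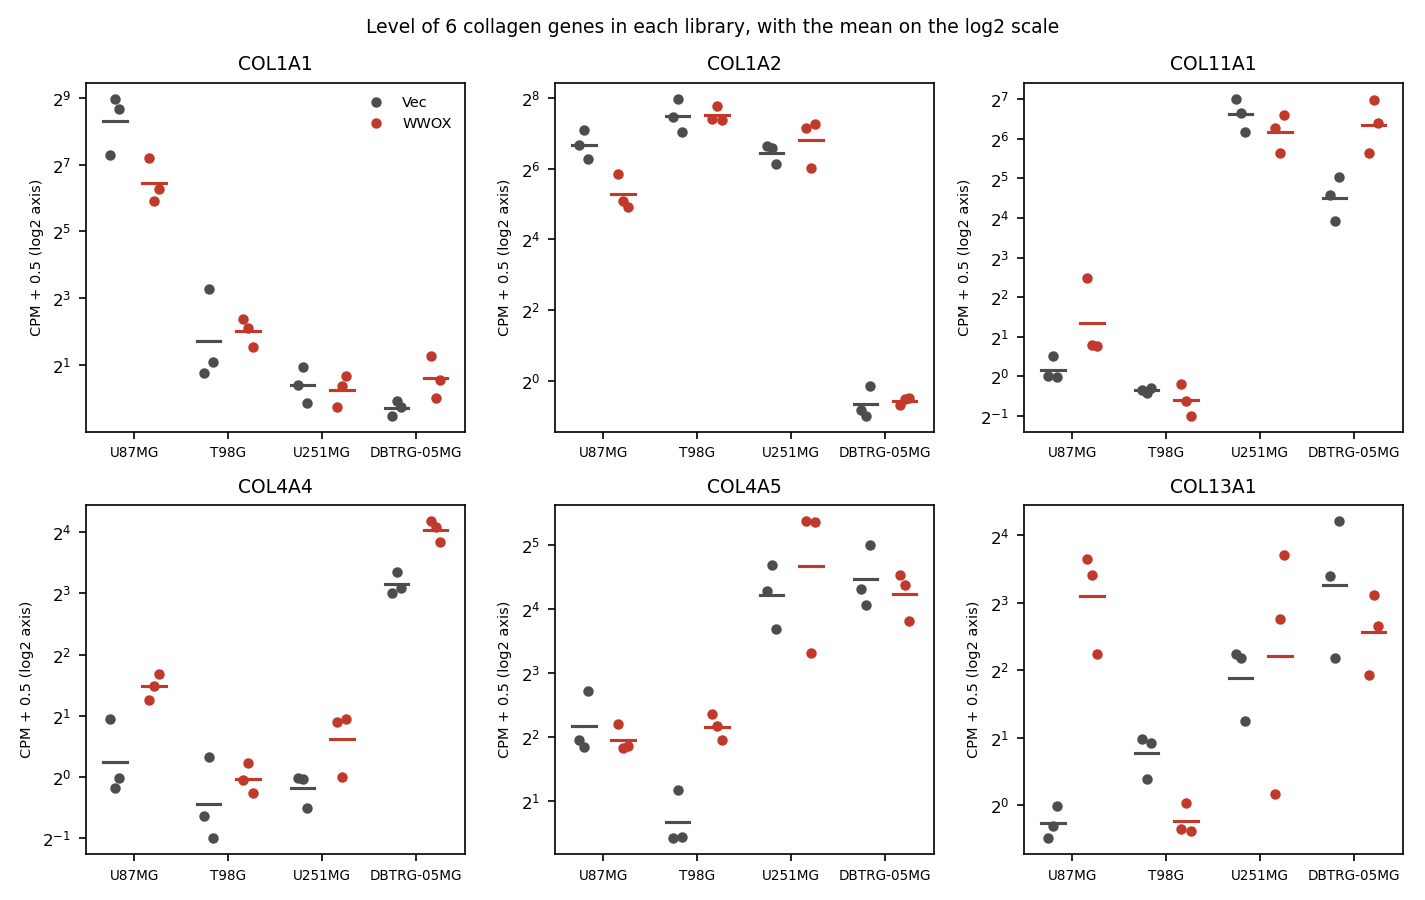
CPM + 0.5 on a log2 axis in each library, “Vec” and “WWOX” side by side in 4 lines, for the 6 collagen genes past the threshold in at least 1 line, with a short bar at the mean on the log2 scale. COL1A1 and COL1A2 sit lower in U87MG “WWOX”, COL13A1 and COL4A4 higher in U87MG “WWOX”, COL4A5 higher in T98G “WWOX” and COL11A1 higher in DBTRG-05MG “WWOX”.

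The 6 type IV genes form 3 head-to-head pairs. The COL4A1 and COL4A2 chains make the network found in nearly every basement membrane. COL4A1 in the “Vec” libraries stood at 0, 0, and 0 CPM in U87MG, 18.6, 20.9, and 7.10 in U251MG, 31.4, 68.2, and 23.7 in T98G, and 112, 59.8, and 149 in DBTRG-05MG. U87MG had no tag in any “Vec” library and 1 tag in 1 “WWOX” library. Against 3 tags per library, COL4A1 was at least 177-fold higher in T98G, 67.0-fold in U251MG and 461-fold in DBTRG-05MG. DBTRG-05MG over T98G (1.21, adjusted p = 0.0371) and T98G over U251MG (1.52, adjusted p = 0.0124) passed, so the 4 lines were ordered. COL4A1 in the “WWOX” libraries stood at 0.0612, 0, and 0 CPM in U87MG, 14.9, 23.9, and 37.3 in U251MG, 26.7, 77.2, and 69.7 in T98G, and 78.4, 173, and 139 in DBTRG-05MG. The variants overlapped in every line, and log2FC was 0.50, 0.72 and 0.24 in T98G, U251MG and DBTRG-05MG, none past the threshold.

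COL4A2 in the “Vec” libraries stood at 5.25, 7.57, and 8.98 CPM in U87MG, 91.5, 124, and 66.8 in U251MG, 196, 264, and 189.9 in T98G, and 398, 175, and 375 in DBTRG-05MG. The order matched that of COL4A1, but U87MG still had COL4A2 tags, and DBTRG-05MG over T98G did not pass (0.26, adjusted p = 0.648). COL4A2 in the “WWOX” libraries stood at 2.88, 6.58, and 7.62 CPM in U87MG, 62.0, 147, and 157 in U251MG, 209.7, 367, and 300.3 in T98G, and 250.9, 354, and 342 in DBTRG-05MG. No line differed between the variants beyond its spread, with log2FC from −0.45 to 0.41. The annotated span of COL4A2 begins at 110305812, through other transcripts than the canonical one, and so overlaps COL4A1 on the opposite strand, and whether tags were counted by strand is not given in the sources used here, so tags there may be shared. In U87MG COL4A1 had 0 CPM in every “Vec” library, so the COL4A2 values there, up to 8.98 CPM, cannot show whether tags were shared.

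COL4A3 and COL4A4 join COL4A5 in the network of kidney glomeruli, and COL4A5 also pairs with COL4A6. COL4A4 in the “Vec” libraries stood at 1.42, 0.386, and 0.491 CPM in U87MG, 0.486, 0.477, and 0.201 in U251MG, 0.141, 0.752, and 0 in T98G, and 7.53, 9.66, and 8.04 in DBTRG-05MG. DBTRG-05MG was highest (DBTRG-05MG over U87MG 2.73, adjusted p = 2.95e-07), and the other lines did not differ in order beyond their spread (adjusted p = 0.204 and 0.637). COL4A4 in the “WWOX” libraries stood at 1.90, 2.31, and 2.71 CPM in U87MG, 1.37, 0.501, and 1.42 in U251MG, 0.465, 0.668, and 0.330 in T98G, and 17.6, 16.5, and 13.8 in DBTRG-05MG. COL4A4 was higher in every “WWOX” library than in every “Vec” library in U87MG, U251MG and DBTRG-05MG. It passed in U87MG (log2FC 1.20 ± 0.321, adjusted p = 0.0389) and not in U251MG (log2FC 0.76, adjusted p = 0.364) or DBTRG-05MG (0.82, 0.441). The U87MG call was lost without U87MG “Vec” 2 or 3, any U87MG “WWOX” library, DBTRG-05MG “Vec” 1 or DBTRG-05MG “WWOX” 2 (adjusted p = 0.0501 to 0.255) and in 5 of 10 other analyses. COL4A4 lies on chromosome 2 from 227002714 to 227164453.

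COL4A3 in the “Vec” libraries stood at 0.142, 0, and 0.0701 CPM in U87MG, 0.405, 0.0796, and 0.134 in U251MG, 0.0703, 0.188, and 0 in T98G, and 9.03, 9.40, and 7.71 in DBTRG-05MG. It was present in DBTRG-05MG and under 1 CPM elsewhere (DBTRG-05MG over U251MG 3.64, adjusted p = 2.15e-09). COL4A3 in the “WWOX” libraries stood at 1.10, 0.0679, and 0.423 CPM in U87MG, 1.03, 0.858, and 0.473 in U251MG, 0, 0.148, and 0.0660 in T98G, and 12.3, 8.29, and 8.64 in DBTRG-05MG. The log2FC was 0.73 in U87MG and 0.85 in U251MG, at most near 1 CPM, with adjusted p = 0.298 and 0.255. In DBTRG-05MG, where the gene was expressed, it was 0.07.

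COL4A5 in the “Vec” libraries stood at 3.41, 3.09, and 6.10 CPM in U87MG, 19.1, 25.3, and 12.4 in U251MG, 0.844, 1.75, and 0.856 in T98G, and 19.5, 16.4, and 31.7 in DBTRG-05MG. DBTRG-05MG and U251MG did not pass the test (0.20, adjusted p = 0.718), U251MG was above U87MG (1.89, adjusted p = 0.000135), and T98G was lowest (1.53 below U87MG, adjusted p = 0.00116). COL4A5 in the “WWOX” libraries stood at 4.10, 3.05, and 3.13 CPM in U87MG, 41.2, 9.44, and 40.7 in U251MG, 4.65, 4.01, and 3.37 in T98G, and 22.6, 20.3, and 13.6 in DBTRG-05MG. COL4A5, on chromosome X from 108439838 to 108697545, rose in T98G, where every “WWOX” library was above every “Vec” library (log2FC 1.51 ± 0.348, adjusted p = 0.0329). The call was lost without T98G “Vec” 1 or 3 or any T98G “WWOX” library (adjusted p = 0.0910 to 0.216) and in 4 of 11 other analyses, limma-voom among them (adjusted p = 0.159). COL4A6 in the “Vec” libraries stood at 0.852, 0.773, and 1.12 CPM in U87MG, 2.84, 3.66, and 2.95 in U251MG, 0.211, 0.188, and 0.156 in T98G, and 5.50, 5.54, and 6.32 in DBTRG-05MG. It followed the same order at lower levels, with DBTRG-05MG and U251MG not past the threshold (0.74, adjusted p = 0.0775). COL4A6 in the “WWOX” libraries stood at 0.673, 0.747, and 0.254 CPM in U87MG, 8.44, 3.29, and 9.81 in U251MG, 0.744, 0, and 0.0660 in T98G, and 7.90, 5.64, and 3.70 in DBTRG-05MG. In U251MG “WWOX” 1 and 3 were well above the “Vec” libraries and “WWOX” 2 lay within them in CPM as deposited (log2FC 0.93 ± 0.314, adjusted p = 0.223). After scaling, the variants did not overlap there.

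Type VI collagen, a beaded microfilament that links cells to the surrounding matrix, is a trimer of COL6A1, COL6A2 and COL6A3 chains, and these were the 3 collagen genes with the highest mean over the 24 libraries. COL6A1 in the “Vec” libraries stood at 217, 279, and 251.3 CPM in U87MG, 422, 282, and 339.9 in U251MG, 217, 182, and 234 in T98G, and 180.4, 98.8, and 193 in DBTRG-05MG. COL6A1 in the “WWOX” libraries stood at 238, 188, and 138 CPM in U87MG, 393, 367, and 287 in U251MG, 106, 106, and 127 in T98G, and 101, 190.4, and 155 in DBTRG-05MG. All 4 lines were within a few-fold of each other, and no neighbours in the order U251MG, U87MG, T98G, DBTRG-05MG passed the test (adjusted p = 0.464, 0.551 and 0.0706). U251MG over DBTRG-05MG (1.23, adjusted p = 0.00280) and U87MG over DBTRG-05MG (0.93, 0.0145) passed. In T98G every “WWOX” library was below every “Vec” library, with log2FC −0.90 ± 0.299 and adjusted p = 0.171. COL6A2 in the “Vec” libraries stood at 506, 511, and 425 CPM in U87MG, 533, 201, and 414 in U251MG, 405, 205, and 433 in T98G, and 218, 212, and 252 in DBTRG-05MG. COL6A2 in the “WWOX” libraries stood at 572, 431, and 400.3 CPM in U87MG, 647, 514, and 281 in U251MG, 289, 219.7, and 289 in T98G, and 282, 375, and 318 in DBTRG-05MG. COL6A2 was likewise high in all 4 lines, with no neighbours in the order U87MG, U251MG, T98G, DBTRG-05MG past the threshold (adjusted p = 0.231, 0.926 and 0.125). U87MG over DBTRG-05MG passed (1.297, adjusted p = 0.00891), and the largest COL6A2 difference with WWOX was 0.44 ± 0.385 in DBTRG-05MG (adjusted p = 0.927). COL6A3 in the “Vec” libraries stood at 221, 299.8, and 385 CPM in U87MG, 0.973, 1.19, and 0.402 in U251MG, 757, 1299, and 552 in T98G, and 0.131, 0.322, and 0.132 in DBTRG-05MG. The third chain split the lines: T98G and U87MG stood above 200 CPM, and U251MG and DBTRG-05MG at about 1 CPM or less (U87MG over U251MG 7.97, adjusted p = 5.12e-15). COL6A3 in the “WWOX” libraries stood at 651, 323, and 249 CPM in U87MG, 0.206, 0.358, and 0.271 in U251MG, 792, 1013, and 1390.3 in T98G, and 0.295, 0.389, and 0.206 in DBTRG-05MG. This split was present in both variants, and log2FC was 0.28, 0.35, −0.73 and 0.16 in U87MG, T98G, U251MG and DBTRG-05MG, none past the threshold.

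COL7A1, which forms the anchoring fibrils under epithelia, ranged over 4.05 to 135 CPM. U87MG was highest (over T98G 1.66, adjusted p = 0.000362) and U251MG lowest (DBTRG-05MG over U251MG 1.59, adjusted p = 0.000822), and U87MG had log2FC −0.84 ± 0.336 with WWOX (adjusted p = 0.269). COL8A1, a short-chain network collagen of vessel walls, was present in every line. COL8A1 in the “Vec” libraries stood at 24.1, 60.0, and 38.1 CPM in U87MG, 10.4, 6.05, and 5.56 in U251MG, 7.73, 19.9, and 6.93 in T98G, and 32.5, 20.3, and 48.5 in DBTRG-05MG. COL8A1 in the “WWOX” libraries stood at 36.1, 20.5, and 15.8 CPM in U87MG, 8.30, 4.58, and 20.2 in U251MG, 4.09, 18.7, and 15.8 in T98G, and 31.7, 22.8, and 24.7 in DBTRG-05MG. Of the neighbours in the order U87MG, DBTRG-05MG, T98G, U251MG, DBTRG-05MG over T98G passed (1.38, adjusted p = 0.0295), and no line passed the test with WWOX (log2FC from −0.80 to 0.35). Its partner COL8A2 was not tested and ranged over 0 to 1.51 CPM, highest in DBTRG-05MG “WWOX” 3.

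The 6 FACIT genes tested encode proteins that bind the surface of fibrils or sit among them. COL14A1 in the “Vec” libraries stood at 0, 0.232, and 0 CPM in U87MG, 254, 83.0, and 196 in U251MG, 7.94, 24.2, and 7.71 in T98G, and 44.9, 49.6, and 57.1 in DBTRG-05MG. U251MG was above DBTRG-05MG (1.71, adjusted p = 0.0122), DBTRG-05MG above T98G (1.88, adjusted p = 0.00484) and T98G above U87MG (4.48, adjusted p = 1.77e-07), so all neighbours differed. COL14A1 in the “WWOX” libraries stood at 0.306, 0.0679, and 0 CPM in U87MG, 406, 88.4, and 99.8 in U251MG, 5.30, 11.1, and 20.8 in T98G, and 84.9, 119, and 95.8 in DBTRG-05MG. In DBTRG-05MG every “WWOX” library was above every “Vec” library, with log2FC 0.90 ± 0.507 and adjusted p = 0.753. COL9A3 in the “Vec” libraries stood at 0.355, 0, and 0.351 CPM in U87MG, 13.8, 35.3, and 13.7 in U251MG, 1.05, 0.188, and 0.389 in T98G, and 3.27, 0.773, and 2.04 in DBTRG-05MG. COL9A3, a chain of the cartilage collagen IX, was highest in U251MG (over DBTRG-05MG 3.10, adjusted p = 1.94e-05). COL9A3 in the “WWOX” libraries stood at 0.0612, 0, and 0.254 CPM in U87MG, 3.57, 7.80, and 17.8 in U251MG, 0.372, 0.297, and 0.330 in T98G, and 1.18, 2.53, and 1.99 in DBTRG-05MG. Its U251MG log2FC of −1.19 ± 0.473 was the largest there and did not pass (adjusted p = 0.321), with the libraries overlapping.

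COL9A2 ranged over 0.0627 to 5.09 CPM and COL21A1 over 0 to 12.7 CPM, the latter at or under 1.43 CPM outside U251MG. COL12A1, a collagen of tendon and of tumour stroma, ranged over 3.25 to 158 CPM. T98G was highest (over U251MG 1.78, adjusted p = 0.0138), where “Vec” 2 stood at 158 CPM against 30.5 and 21.9. COL16A1 ranged over 1.36 to 47.8 CPM, with U87MG and T98G high, DBTRG-05MG and U251MG low (T98G over DBTRG-05MG 3.40, adjusted p = 3.99e-10). With WWOX the COL16A1 log2FC was 0.31, 0.56, −0.08 and 0.73 in U87MG, T98G, U251MG and DBTRG-05MG, and the smallest adjusted p was 0.339. No FACIT gene passed the test with WWOX in any line.

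COL13A1, a transmembrane collagen that sits at adhesion sites and at the nerve-muscle junction, gave the largest difference with WWOX of any collagen gene. It lies on chromosome 10 from 69801880 to 69964275. COL13A1 in the “Vec” libraries stood at 0.213, 0.309, and 0.491 CPM in U87MG, 4.22, 4.06, and 1.88 in U251MG, 1.48, 0.815, and 1.40 in T98G, and 10.0, 4.06, and 18.0 in DBTRG-05MG. The “Vec” order ran from DBTRG-05MG over U251MG and T98G to U87MG, and no neighbours passed the test (adjusted p = 0.114, 0.244 and 0.180). U87MG minus DBTRG-05MG was −3.39 (adjusted p = 0.000116), T98G minus DBTRG-05MG −2.31 (0.00482) and U87MG minus U251MG −2.07 (0.0109), all past the threshold. COL13A1 in the “WWOX” libraries stood at 12.1, 10.1, and 4.23 CPM in U87MG, 0.617, 6.29, and 12.6 in U251MG, 0.279, 0.520, and 0.264 in T98G, and 3.30, 8.16, and 5.83 in DBTRG-05MG. In U87MG the gene was under 1 CPM in all “Vec” libraries and at 4.23 CPM or more in all “WWOX” libraries, and it rose by 3.38 ± 0.623 log2 (adjusted p = 0.00156), a call that held without any 1 library and in the 10 of 11 alternative analyses that tested the gene, whose mean over the libraries was too low for the minimum mean of 5 CPM in the other. In T98G every “WWOX” library was below every “Vec” library (log2FC −1.05 ± 0.623, adjusted p = 0.560). In DBTRG-05MG it was −0.75 ± 0.623 and in U251MG 0.34 ± 0.623, where “WWOX” 1 to 3 spread from 0.617 to 12.6 CPM. The U87MG mean went from 0.338 to 8.82 CPM, which put it in the range of the DBTRG-05MG “Vec” libraries.

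COL18A1, the source of the fragment endostatin, is a multiplexin of basement membranes and was, like COL4A1, near 0 in U87MG. COL18A1 in the “Vec” libraries stood at 0.0710, 0.0773, and 0.0701 CPM in U87MG, 99.9, 111, and 76.1 in U251MG, 149, 185, and 141 in T98G, and 99.1, 43.7, and 84.8 in DBTRG-05MG. U87MG “Vec” held 3 tags in 3 libraries, so the ratios to it are known only within wide intervals. The tag rate in T98G was 2201 times that of U87MG (95% exact binomial interval 753 to 10675, counting error only), with 1300.3 times (445 to 6308) in U251MG and 1041 times (356 to 5052) in DBTRG-05MG. T98G over U251MG passed (0.89, adjusted p = 0.0319) and U251MG over DBTRG-05MG did not (0.45, adjusted p = 0.302). COL18A1 in the “WWOX” libraries stood at 0, 0.0679, and 0 CPM in U87MG, 102, 99.8, and 84.0 in U251MG, 152, 136, and 113 in T98G, and 29.3, 74.8, and 60.4 in DBTRG-05MG. The variants overlapped in T98G, U251MG and DBTRG-05MG, and the log2FC was −0.55 ± 0.313 in DBTRG-05MG (adjusted p = 0.762). COL18A1 is overlapped by genes on the opposite strand, as are COL1A1, COL1A2, COL4A2, COL13A1 and others, whose tags cannot be told apart if strand was ignored in counting.

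Chains that join 1 trimer were set side by side as log2 ratios of CPM + 0.5 within each library, as a description. COL1A1 over COL1A2 spanned −7.40 to 2.39 over the 24 libraries. It was 1.63 ± 0.903 (SD, n = 3) in U87MG “Vec”, and −5.79 ± 0.999 in T98G “Vec”. COL6A1 over COL6A3 spanned −3.44 to 9.12, whereas COL6A1 over COL6A2, which lie 116342 bases apart on 1 strand of chromosome 21, spanned only −1.53 to 0.49. COL6A1 and COL6A2 alone spanned 2.09 and 1.69 log2, about as much as their ratio (2.02). COL4A1 and COL4A2 alone spanned 8.44 and 6.88 log2, against 3.21 for their ratio. In COL1A1 over COL1A2 each chain was low in some lines, COL1A1 outside U87MG and COL1A2 in DBTRG-05MG, and in COL6A1 over COL6A3 the second chain was. Of the head-to-head pairs, COL4A1 was below COL4A2 in 24 of 24 libraries, and COL4A5 above COL4A6 in 24 of 24. COL4A1 and COL4A2 may share tags if strand was ignored in counting. COL4A3 was above COL4A4 in 2 of 24 and spanned −2.31 to 0.44. COL5A1 over COL5A2 spanned −3.08 to 1.84, positive by mean in U87MG and T98G “Vec” (0.15 ± 0.233 and 0.12 ± 0.364) and negative in U251MG and DBTRG-05MG “Vec” (−1.55 ± 0.157 and −1.48 ± 0.960). COL8A1 was above COL8A2 in 24 of 24. The floor of 0.5 CPM bounds a ratio when a chain is near 0, and with 0.1 the spans of the type IV pairs widened, from 3.21 to 5.47 log2 for COL4A1/COL4A2, from 2.75 to 4.52 for COL4A3/COL4A4 and from 2.25 to 3.87 for COL4A5/COL4A6, while that of COL6A1/COL6A2 was 2.02 with either.

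**Figure D5:**
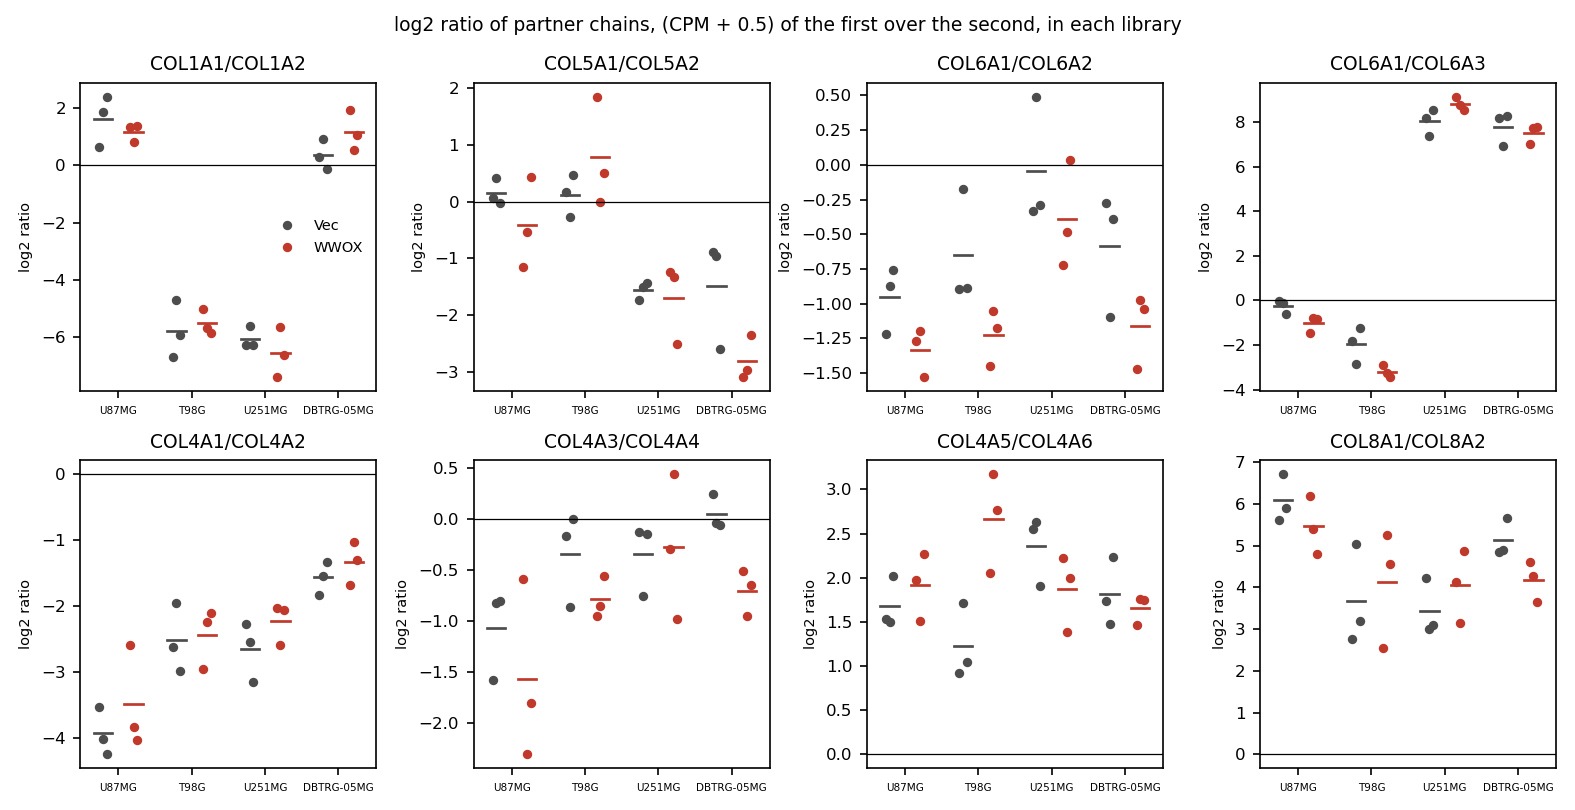
Log2 ratio of CPM + 0.5 of 8 pairs of partner chains, 1 point per library, by line and variant. COL1A1/COL1A2 and COL6A1/COL6A3 fall into widely separate levels by cell line, while COL6A1/COL6A2 and the type IV pairs span 2.02 to 3.21 log2 units, a span that is wider for the type IV pairs with a smaller floor.

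Whether the difference with WWOX was the same in the 4 lines was tested with an F test, and 3 of 25 collagen genes passed (3.49% of all genes did): COL13A1 (adjusted p = 0.0103), COL1A2 (0.0302) and COL11A1 (0.0453). The side by side log2FC in U87MG, T98G, U251MG and DBTRG-05MG was 3.38, −1.05, 0.34 and −0.75 for COL13A1. The COL13A1 difference of U87MG from T98G was 4.43 (adjusted p = 0.00493, the 1 collagen gene of 25, where 2.29% of all genes passed) and from DBTRG-05MG 4.13 (0.00968, again 1 of 25, 1.87%). From U251MG it was 3.04 and did not pass (0.0987). COL1A2 was the 1 collagen gene whose log2FC in U87MG differed from that in U251MG by limma (−1.81, adjusted p = 0.0182, 1.58% of all genes). For that pair limma-voom called COL1A2 too, edgeR called 0 and DESeq2 called COL11A1, COL13A1 and COL1A2. The COL1A2 difference of U87MG from T98G and from DBTRG-05MG was −1.49 (0.0540) and −1.54 (0.0506).

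COL11A1 passed the F test but no single pair of lines: U251MG minus DBTRG-05MG was −2.22 (adjusted p = 0.0941) and T98G minus DBTRG-05MG −2.03 (0.119). Its F call held only without U87MG “Vec” 2, any U87MG “WWOX” library, T98G “Vec” 2, T98G “WWOX” 1, DBTRG-05MG “Vec” 3 or DBTRG-05MG “WWOX” 1, and was lost without each of the other 16 libraries (adjusted p = 0.0516 to 0.106). The COL1A2 F call was lost without U87MG “Vec” 1 or 2, U87MG “WWOX” 2 or 3, T98G “Vec” 1 or U251MG “Vec” 3 (adjusted p = 0.0517 to 0.123). COL1A1 passed without T98G “Vec” 2 (adjusted p = 0.0137) or U87MG “Vec” 1 (0.0422), and COL4A5 without U251MG “WWOX” 2 (0.00841). In the other 3 pairs of lines limma called 0 collagen genes, with 3 at an unadjusted p under 0.05 for T98G minus DBTRG-05MG (0.933% of all genes passed), 4 for T98G minus U251MG (0.876%) and 4 for U251MG minus DBTRG-05MG (0.576%). DESeq2 called COL4A5 in the first and COL11A1 in the last, and edgeR and limma-voom called 0.

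Of 78 genes that modify, export, cleave, cross-link, bind, degrade or regulate collagens, 64 were tested. They were chosen with earlier results of these data known, so their shares past the threshold describe the listed genes only. With WWOX, 6 passed in U87MG (2 higher, 4 lower), which is 9.4% where 3.2% of all genes did. In T98G 3 passed (1 higher, 2 lower), or 4.7% against 1.14%. In DBTRG-05MG 1 passed (lower), or 1.6% against 1.02%, and in U251MG 0 passed by limma, against 0.316% of all genes. The median log2FC over the 64 was −0.03 for U87MG (0.00 over all genes) and 0.04 for T98G (−0.04 over all genes). For DBTRG-05MG this median was 0.20 and for U251MG 0.02, each against 0.00 over all genes. Among 13 hydroxylation and glycosylation genes tested 1 passed, P3H2, a collagen prolyl 3-hydroxylase. P3H2 in U87MG went from 2.34, 5.41, and 4.49 CPM to 1.04, 0.679, and 0.593 CPM (log2FC −1.87, adjusted p = 0.00181). Of 13 genes for propeptide cleavage and cross-linking, 2 passed, PCOLCE2 in U87MG and ADAMTS2 in T98G and DBTRG-05MG. PCOLCE2 enhances removal of the C-propeptide, and ADAMTS2 removes the N-propeptide of fibrillar procollagens. PCOLCE2 in U87MG went from 34.3, 41.1, and 37.3 CPM to 11.9, 7.26, and 10.9 CPM (log2FC −1.94, adjusted p = 0.0147). ADAMTS2 in DBTRG-05MG went from 5.96, 3.22, and 3.56 CPM to 0.413, 0.907, and 0.617 CPM (log2FC −2.03, adjusted p = 3.49e-05). ADAMTS2 in T98G went from 2.18, 3.20, and 2.02 CPM to 0.651, 0.445, and 1.25 CPM (log2FC −1.26, adjusted p = 0.0111). ADAMTS2 did not overlap between the variants in either line, and its mean over the 4 lines fell too (log2FC −0.74, adjusted p = 0.00137).

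Of 9 receptors tested, 2 passed, both higher in U87MG. ITGA11, a collagen-binding integrin chain, went from 0.0710, 0, and 0.140 CPM to 5.75, 1.97, and 2.88 CPM (adjusted p = 0.00699), and LAIR1, an inhibitory collagen receptor of leukocytes, from 0, 0, and 0 CPM to 0.551, 2.24, and 5.08 CPM (adjusted p = 0.000789). The “Vec” libraries held at most 3 tags of either in all, and no ratio is given for them. Of 15 folding and export genes, 1 passed. CREB3L1 in T98G went from 37.5, 23.1, and 43.2 CPM to 11.3, 8.68, and 8.58 CPM (log2FC −1.77, adjusted p = 0.00585); CREB3L1 is a transcription factor that drives procollagen genes. Of 5 collagenase and uptake genes, 1 passed. PEPD in T98G went from 64.6, 58.8, and 65.8 CPM to 115, 94.4, and 134 CPM (log2FC 0.84, adjusted p = 0.0236). Among the regulators of collagen transcription, TGFB3, a TGF-beta ligand, passed in U87MG and was lower. TGFB3 in U87MG went from 5.33, 12.2, and 7.58 CPM to 2.69, 2.99, and 2.37 CPM (log2FC −1.47, adjusted p = 0.0269).

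Leaving out libraries ended 6 of the calls named here. They were ADAMTS2 in T98G without T98G “WWOX” 2 (adjusted p = 0.0658), CREB3L1 without T98G “Vec” 3 or “WWOX” 3 (0.0518 to 0.0570), ITGA11 without U87MG “WWOX” 1 (0.0587), PCOLCE2 without U87MG “Vec” 2 or “WWOX” 2 (0.0744 to 0.0859), PEPD without T98G “Vec” 1, “WWOX” 1 or “WWOX” 3 (0.0673 to 0.183), and TGFB3 without U87MG “Vec” 2 or 3 or any “WWOX” library (0.0615 to 0.204). P3H2 passed in 24 of 24 such fits, and LAIR1 in U87MG and ADAMTS2 in DBTRG-05MG in the 23 that tested them. LAIR1 was not tested without U87MG “WWOX” 3, nor ADAMTS2 without DBTRG-05MG “Vec” 1. Only that library brought each gene to 5 CPM, so dependence of these calls on it was not tested. In the other analyses TGFB3 missed the threshold in 6 of 10, ADAMTS2 in T98G in 5 of 10 and PCOLCE2 in 2 of 11. P3H2, PEPD and CREB3L1 each missed it in 1 of 11, LAIR1 and ADAMTS2 in DBTRG-05MG each in 1 of 10, and ITGA11 in none of 11.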

How the data were processed

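CAGE-Seq libraries of 24 samples were analysed. Per the study's methods, capped RNA was turned into single-end libraries, and the authors aligned reads with STAR to hg38 and counted tags per gene with SAMtools. The annotation version and the use of strand in counting are not given in the sources used here. The deposited values are CPM, scaled by the authors to the tags on genes of each library. They were whole tags for 100% of values within 0.01 tags, so tags were recovered, with 10756072 to 16953689 tags per library (median 14584829). The collagen genes and gene lists were chosen with earlier results of these data known. Symbols and positions came from GENCODE 44, which gave 43033 of 43037 genes a symbol.

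Scaling factors from a trimmed mean of M-values without weights (trims of 30% and 5%) were computed on CPM and applied to it, and 0.5 was added before log2. Genes with under 5 CPM in all libraries were left out. limma 3.58.1 (R 4.3.3) fitted 8 groups with an intensity trend and 16 residual degrees of freedom, and p-values were adjusted over 12327 genes by Benjamini-Hochberg. This moderated test gave every adjusted p unless another tool is named. Levels are CPM as deposited. Alternatives were CPM without scaling, median-of-ratios scaling, adding 0.1 or 1 in place of 0.5, dropping the filter or asking for a mean of 5 CPM, a model per line, a replicate block, edgeR 4.0.16, limma-voom and DESeq2 1.42.0 on recovered tags, and each library left out. The edgeR quasi-likelihood test called 328 genes in U87MG, 113 in T98G, 49 in DBTRG-05MG and 14 in U251MG, against 395, 140, 126 and 39 by limma. Replicate numbers did not pair samples (correlations of deviations −0.55 to 0.51). Values in every library are given for genes past a threshold, the 6 highest by mean, partner chains, and the 3 largest log2FC per line; other genes are given by range. The fit was tested on simulated data. The submitters' processing notes also name limma 3.42. Promoters came from RefSeq (GRCh38.p14). Figures were drawn with matplotlib 3.10.9 in Python 3.11.15. The result of 1 gene of the pathway lists is not reported here.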

Additional observations from a re-analysis of the deposited data

Results flagged for a closer look

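The difference between “WWOX” and “Vec” was not the same in the 4 lines for 3 collagen genes and 4 genes of the wider collagen pathway (limma F test, adjusted over all genes).

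COL13A1 (adjusted p = 0.0103) had a log2FC of 3.38 in U87MG, 0.34 in U251MG, −1.05 in T98G and −0.75 in DBTRG-05MG. COL1A2 (adjusted p = 0.0302) had a log2FC of −1.46 in U87MG, 0.35 in U251MG, 0.03 in T98G and 0.08 in DBTRG-05MG. COL11A1 (adjusted p = 0.0453) had a log2FC of 1.15 in U87MG, −0.46 in U251MG, −0.26 in T98G and 1.76 in DBTRG-05MG. The F call of COL11A1 was lost in 7 of 10 other analyses, among them edgeR (adjusted p = 0.0670) and limma-voom (0.207). For COL1A2 it was lost in 4 of 10, again with edgeR (adjusted p = 0.125) and limma-voom (0.0854) among them. Only COL13A1 of these collagen genes kept its F call in every other analysis that tested it.

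ADAMTS2, the N-propeptidase, had the smallest adjusted p of the 7 genes (0.000307), with a log2FC of 0.31 in U87MG, 0.00 in U251MG, −1.26 in T98G and −2.03 in DBTRG-05MG. P3H2, the prolyl 3-hydroxylase, followed (0.00856), with −1.87 in U87MG, 0.26 in U251MG, 0.53 in T98G and 0.52 in DBTRG-05MG. CREB3L1 (0.0274) had a log2FC of −0.32 in U87MG, 0.25 in U251MG, −1.77 in T98G and 0.21 in DBTRG-05MG. LAIR1 (0.0359) had no tag in the U87MG “Vec” libraries and 0.551, 2.24, and 5.08 CPM in the U87MG “WWOX” libraries. The cause of these differences between lines was not tested.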

How the results depend on the processing

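The counts of collagen genes past the threshold moved with the processing. In U87MG the 4 genes became 2 with a pseudocount of 0.1 or edgeR and 1 with a mean of at least 5 CPM or a separate model per line. DESeq2 called 5 there, with COL11A1 added. Leaving out 1 library gave 2 to 4 there, with 2 without U87MG “Vec” 2 or 3, “WWOX” 2 or 3, or DBTRG-05MG “Vec” 1. In T98G the 1 gene became 0 with a pseudocount of 1, CPM as deposited, a separate model or limma-voom (0 to 1 with 1 library left out). In U251MG the range with 1 library left out was 0 to 1. In DBTRG-05MG the 1 gene became 0 with a pseudocount of 0.1, a separate model or edgeR and 2 with no filter (0 to 1 with 1 library left out). For the mean over lines, 1 became 2 with no filter and 0 with a mean of at least 5 CPM or edgeR (1 to 2 with 1 library left out). For the F test of unequal differences, 3 became 1 with a pseudocount of 0.1, CPM as deposited, edgeR, limma-voom or a mean of at least 5 CPM, and 5 with DESeq2 (1 to 4 with 1 library left out). The “Vec” differences among lines gave 25 genes (23 to 25 with 1 library left out) and 103 pairs (94 to 107). Over all genes, edgeR called 14 in U251MG and 49 in DBTRG-05MG, against 39 and 126 by limma. A separate model has fewer samples, the higher minimum fewer genes, and for the other settings the cause was not tested.

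Of 825 log2FC values under the alternatives, 742 kept their direction and side of the threshold, 82 lost the threshold, 1 gained it and none reversed. Replicate numbers did not pair the samples, and with a replicate block the counts were 4, 1, 0 and 1 in U87MG, T98G, U251MG and DBTRG-05MG, 2 for the F test of unequal differences and 102 pairs. The mean WWOX difference passed with DESeq2 (0.39) and without U251MG “WWOX” 2 (0.41), and leaving out 1 library gave 0.28 to 0.41. With 0.1 in place of 0.5 added to CPM, mean log2 ratios were −3.06 for COL4A1/COL4A2, −1.11 for COL4A3/COL4A4, 2.34 for COL4A5/COL4A6, 3.70 for COL6A1/COL6A3 and 5.83 for COL8A1/COL8A2. In 1 library, levels below 3 tags, at most 0.279 CPM, could not be told from 0.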

Other observations

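Among the collagen genes left out by the filter on low values, a few were higher in 1 line than in the others. COL24A1, a fibrillar collagen of developing bone, stood at 0.786, 0.708, and 0.988 CPM in the “Vec” and 1.95, 2.66, and 3.15 CPM in the “WWOX” libraries of DBTRG-05MG, without overlap, and at 0.412 CPM or less in the other 3 lines. With no filter on low values it passed the test there (log2FC 1.13, limma adjusted p = 0.000403). COL15A1, the other multiplexin, stood at 1.35, 4.79, and 3.72 CPM in the “Vec” and 3.37, 2.04, and 2.12 CPM in the “WWOX” libraries of U87MG and at 0.406 CPM or less elsewhere, so U87MG, the line near 0 for COL18A1, was highest for COL15A1.

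COL3A1 reached 4.89 CPM in T98G “Vec” 2 and stood at 0.651, 2.23, and 2.38 CPM in T98G “WWOX”, against 0.386 CPM or less in the other lines. COL17A1, the hemidesmosome collagen, was highest in DBTRG-05MG, at 2.16, 0.386, and 2.44 CPM in “Vec” and 0.944, 4.15, and 2.47 CPM in “WWOX”. COL19A1 ranged from 0.295 to 1.11 CPM in DBTRG-05MG and stayed at 0.541 CPM or less elsewhere. COL5A3 also passed without the filter in U87MG (log2FC −0.27, adjusted p = 0.000592), although it stood at 0.142 CPM or less in every library, below the level of 3 tags.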
